A study of Mus musculus with 24 samples.

Results

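The data described here are 6 of the 24 samples of a study of the ovarian surface epithelium, the single cell layer that covers the ovary. They are all the samples in which cultured mouse ovarian surface epithelial cells carried a lentivirus with Snail or the empty vector, and they were chosen by their labels, not by any measured value. All 6 came from the line m1102, grown as monolayers in medium with serum and EGF and with no added TGFB1. In 1 group of 3 samples the cells had been transduced with a Snail construct, and in the other group of 3 with the empty vector, called WPI. The labels do not give the promoter that drives Snail, the time after transduction, or whether the 3 samples of a group were separate cultures, so the p-values below measure only the spread between these libraries. Both groups carry a lentiviral vector, so an effect of transduction itself is shared by both and was not measured in this table.

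Snail, the protein made from Snai1, is a zinc finger transcription factor. It binds E-boxes with the core CAGGTG, which reads CACCTG on the other strand, and recruits histone deacetylases, the demethylase KDM1A and Polycomb proteins through its SNAG domain, which lowers transcription. It is best known for repressing E-cadherin (Cdh1), claudins and occludin during the epithelial-mesenchymal transition (EMT), in which epithelial cells loosen their junctions and take on a fibroblast-like form. Ovarian surface cells are a mesothelium and carry epithelial and mesenchymal traits side by side. The comparison asks what added Snail does to the RNA levels of such cells.

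Poly(A)-selected RNA was sequenced, and the values are the authors' TPM (a level per transcript length) scaled by a factor per library, here called scaled TPM. The column sums of the 6 libraries lay between 983449 and 1021026. Read depth is unknown, because no counts were used. Of the 35688 genes in the table, 12240 reached a scaled TPM of 1 in at least 3 libraries and were tested. Over these genes the correlation of log2 values was 0.988 to 0.992 within groups and 0.983 to 0.991 between groups, and those ranges overlap. The cells had high levels of the mesothelial genes that mark the ovarian surface. Upk1b, a uroplakin, had 507 ± 17.2 scaled TPM (SD, n = 3) with the vector and Wt1, a transcription factor of the mesothelium, had 262 ± 15.6. Of 15 leukocyte markers 3 were tested and of 15 endothelial markers 3. The summed level of the leukocyte list was 27.3 to 29.5 with the vector and 24.1 to 31.4 with Snail, and Ptprc, the pan-leukocyte antigen, stood at 0.0771 or less in every library.

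Snai1 (chromosome 2, 167538195 to 167542814 on GRCm38, plus strand) came first, as the check of the labels. Its scaled TPM was 13.7, 10.1 and 9.81 in the vector libraries and 234, 195 and 193 in the Snail libraries. Every Snail library was therefore far above every vector library, and the means differed 18.5-fold. On the log2(scaled TPM + 1) scale used for all differences below, the change was 4.10 ± 0.13 (standard error), with an adjusted p of 2.54e-05 in limma's moderated test. No other tested gene among the 12240 changed by as much in the positive direction. The value counts transcripts of the cells' own gene and of the construct together, since a level per gene does not separate them. In bulk RNA a larger share of cells with the construct and more RNA per cell cannot be told apart.

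Against that change in Snai1 the response of other genes was small. At a Benjamini-Hochberg adjusted p under 0.05 (limma), 210 genes differed, 1.72% of those tested. There were 70 higher with Snail (0.572%) and 140 lower (1.14%), so 66.7% of the calls were falls. All 210 had groups that did not overlap, which 20.6% of the tested genes did. The median size of a called change was 0.54 log2, and 81 of the 210 were below 0.5. A change of at least 2-fold was reached by 18 called genes (0.147% of those tested), of which 17 were higher and 1 was lower. The median log2 fold change of all tested genes was 0.01. The authors' deposited table, from their own model, lists 555 genes at a q-value under 0.05, 201 higher and 354 lower, and 203 of the 210 are among them. The count depends on having 3 libraries in each group. Leaving out 1 library left 65, 66 or 51 calls without the vector libraries 1, 2 and 3, and 59, 23 or 75 without the Snail libraries 1, 2 and 3. In each of these fits falls outnumbered rises. A core of 21 genes, 5 higher and 16 lower, passed in all 6 of them, and 109 of the 210 passed in none.

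**Figure D1:**
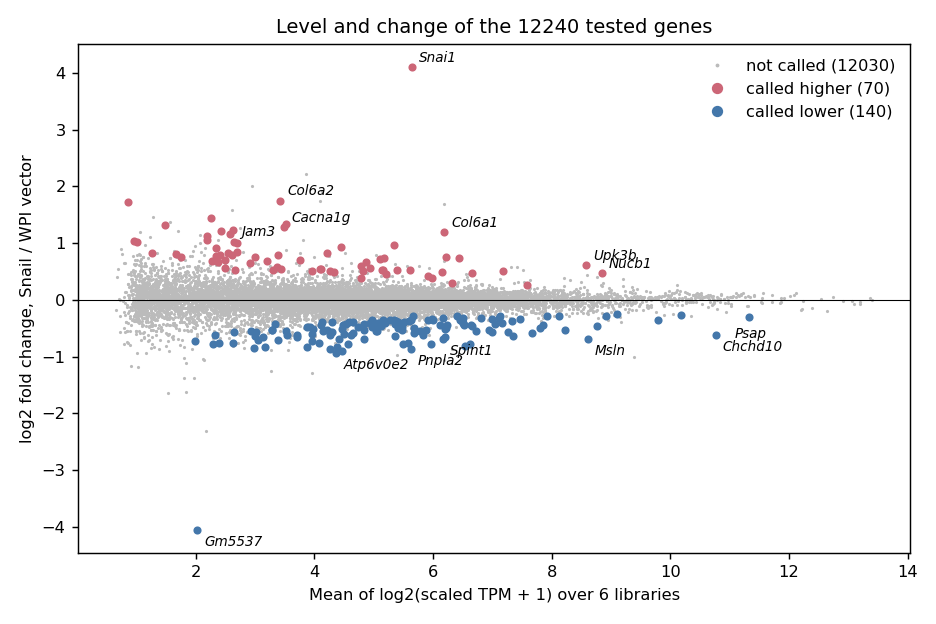
Each point is 1 of the 12240 tested genes, with its mean log2(scaled TPM + 1) over the 6 libraries on the x axis and its log2 fold change, Snail over WPI vector, on the y axis. Snai1 stands alone at 4.10, and the 140 genes called lower form a narrow band that reaches down to -0.93 when Gm5537, listed at 0 in all Snail libraries, is set aside.

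Genes that mark epithelial cells were largely at or near 0 in both groups. Of 30 epithelial identity genes, 21 did not reach the level needed for testing. Cdh1, the classical target of Snail, had at most 0.0454 scaled TPM in a vector library and at most 0.0843 in a Snail library. Epcam, an epithelial adhesion protein, was listed at 0 in all 6 libraries. The claudins Cldn3, Cldn4 and Cldn7, which seal tight junctions, stayed at or below 0.287. Crb3, a polarity protein, reached 1.03 in 1 vector library and lay between 0.288 and 0.637 in the others. None of these genes was tested, and a fall from such levels was not detectable. N-cadherin (Cdh2), the cadherin usually gained in EMT, was already at 50.6 ± 2.48 in the vector libraries and 47.2 ± 0.411 in the Snail libraries (log2 fold change -0.10 ± 0.06, adjusted p = 0.517, limma). P-cadherin (Cdh3) had 145 ± 14.0 and 159 ± 15.3 (0.14 ± 0.09, adjusted p = 0.571, limma).

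Junction genes that the cells did express were lower in a few cases. Occludin (Ocln), a membrane protein of tight junctions, had 10.1, 9.52 and 10.4 scaled TPM with the vector and 5.74, 6.76 and 5.53 with Snail. All Snail libraries lay below all vector libraries. The change was -0.65 ± 0.10 (adjusted p = 0.0284, limma), and it did not pass in any of the 6 fits with 1 library left out, where the adjusted p reached 0.115. Plakoglobin (Jup), which links cadherins and desmosomes to the cytoskeleton, fell from 150, 145 and 146 to 109, 99.7 and 95.9, a change of -0.53 ± 0.06 (adjusted p = 0.00981, limma). Spint1, a membrane-bound inhibitor of epithelial serine proteases, went from 85.6, 98.2 and 86.2 to 54.2, 54.7 and 57.0. Its groups were well apart, its change of -0.69 ± 0.07 had an adjusted p of 0.00659 (limma), and it passed in all 6 fits with 1 library left out. Its relative Spint2 had 42.1 and 29.1 as group means but did not pass (-0.52, adjusted p = 0.177, limma). Jam3, a junctional adhesion molecule also found on cells without tight junctions, went the other way. It rose from 3.56, 3.24 and 3.36 to 7.78, 7.63 and 8.33 (1.02 ± 0.10, adjusted p = 0.00659, limma), again in all 6 such fits.

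Over all tested genes, 1.14% were called lower and 0.572% higher. Counted by list, 1 of 13 tested adherens junction and desmosome genes fell (Jup) and none rose, with a list median of -0.09. Among 16 tight junction and polarity genes 1 fell (Ocln) and 1 rose (Jam3), with a median of -0.11. Of these 16, 10 had negative values, and 6 were lower at an unadjusted p under 0.05, a level that 8.41% of all tested genes reached. They included the tight junction plaque proteins Cgn (-0.36) and Cgnl1 (-0.20) and the polarity proteins Pard6b (-0.53) and Llgl2 (-0.35), none of which passed after adjustment. Of 9 tested epithelial identity genes 1 fell (Spint1), and the list median was -0.14. Of 6 tested keratins, the intermediate filaments of epithelia, only Krt18 passed. It had 230, 280 and 232 scaled TPM with the vector and 154, 161 and 182 with Snail (-0.57 ± 0.09, adjusted p = 0.034, limma). Krt8, its usual partner, was at 0.508 or less in every library, while Krt7 had 271 ± 41.6 with the vector and 280 ± 53 with Snail (0.04 ± 0.16, adjusted p = 0.944, limma).

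No other EMT transcription factor passed the test (limma). Of 18 on the list 11 were tested, and Snai1 was the only one called, with a median of 0.04 for the list. Zeb1 had 17.1 ± 2.30 and 16.2 ± 0.128 scaled TPM (-0.07 ± 0.10, adjusted p = 0.83, limma). Zeb2, Twist1, Tcf4, Sox4, Runx1 and Fosl1 had changes between -0.04 and 0.10, with adjusted p of 0.806 to 0.966 (limma). Tcf3, which encodes the E proteins E12 and E47, was higher in every Snail library, at 56.0, 53.5 and 51.2 against 46.5, 49.5 and 47.5, and did not pass (0.16 ± 0.06, adjusted p = 0.257, limma). Snai2 was low in both groups, at 0.868 to 1.87. Snai3, the third member of the family, had 1.62, 2.60 and 1.75 with the vector and 0.315, 1.14 and 1.11 with Snail. Those groups did not overlap, but the change of -0.71 ± 0.24 did not pass (adjusted p = 0.218, limma). Twist2 and Gsc were listed at 0 in all libraries. A list of 24 genes held corepressors of Snail and factors of its turnover, such as Kdm1a, Hdac1, Ezh2 and Gsk3b. All 24 were tested and none was called, where 1.72% of all tested genes were. Their median was 0.07 and their unadjusted p was under 0.05 in the positive direction for 4 of them, against 6.41% of all tested genes.

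Matrix genes gave the clearest rises. Of 34 tested mesenchymal and matrix genes 4 rose and none fell, with a list median of 0.11. Over all tested genes 0.572% were called higher. Collagen VI is a heterotrimer that forms beaded filaments around cells, and the genes of 2 of its chains were among the 4. Col6a2 went from 6.12, 3.92 and 4.65 to 26.3, 18.2 and 13.4 scaled TPM (1.75 ± 0.24, adjusted p = 0.0192, limma). Col6a1 went from 59.0, 36.0 and 49.5 to 145, 106 and 84.6 (1.19 ± 0.22, adjusted p = 0.0477, limma). In both genes the Snail libraries differed among themselves by more than the vector libraries did, and no Snail library reached down to a vector library. Col6a1 did not pass in any fit with 1 library left out (adjusted p up to 0.152), and Col6a2 passed in 3 of 6. The genes lie next to each other on the minus strand of chromosome 10, Col6a2 at 76595762 to 76623630 and Col6a1 at 76708792 to 76726168, with 85161 bases between them.

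Tnc, the matrix glycoprotein tenascin-C, had 2.26, 2.18 and 2.06 scaled TPM with the vector and 7.07, 5.35 and 4.46 with Snail (1.05 ± 0.16, adjusted p = 0.027, limma). Sdc1, a heparan sulfate proteoglycan of the cell surface that epithelia carry, rose from 28.7 ± 3.26 to 41.7 ± 1.29 (0.53 ± 0.09, adjusted p = 0.0324, limma). Both passed in 1 of 6 fits with 1 library left out. Fibronectin (Fn1), a standard EMT marker, was higher in every Snail library, at 523, 441 and 539 against 388, 380 and 357, but missed the threshold (0.41 ± 0.08, adjusted p = 0.0561, limma). It passed when the level needed for testing was raised to 5 (adjusted p = 0.0465, limma), and the authors' deposited table lists it with a q-value of 0.000475. Vimentin (Vim), the mesenchymal filament, was abundant with the vector, at 1271, 1394 and 1199. Its Snail values of 1072, 1011 and 1097 were lower (-0.28 ± 0.07, adjusted p = 0.104, limma). It passed as lower with quantile normalization (adjusted p = 0.0496), and the authors' deposited table lists it with a q-value of 0.0112. Spp1, the secreted phosphoprotein osteopontin, had 84.7, 136 and 97.8 with the vector and 36.3, 49.8 and 67.1 with Snail, and did not pass (-1.06 ± 0.24, adjusted p = 0.0853, limma). Its q-value in the authors' deposited table is 0.0385.

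Among matrix proteases and their inhibitors, 2 of 21 rose and 1 fell, while 0.572% of all tested genes were called higher and 1.14% lower. Adamts1, which cleaves proteoglycans, went from 13.1 ± 2.77 to 23.8 ± 1.95 scaled TPM (0.83 ± 0.14, adjusted p = 0.039, limma). Adamts2, which trims the ends of procollagens, went from 3.87 ± 0.463 to 7.80 ± 1.45 (0.84 ± 0.15, adjusted p = 0.0394, limma). Timp2, an inhibitor of metalloproteinases and among the most abundant called genes, fell from 1267 ± 18.4 to 1057 ± 22.1 (-0.26 ± 0.05, adjusted p = 0.0396, limma). Taking every collagen chain in the table, a family counted after these values were seen, 21 were tested, 4 rose (Col6a2, Col6a1, Col27a1 and Col18a1) and none fell. Their median was 0.15 and 16 of the 21 were positive, against 53.4% of all tested genes.

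**Figure D2:**
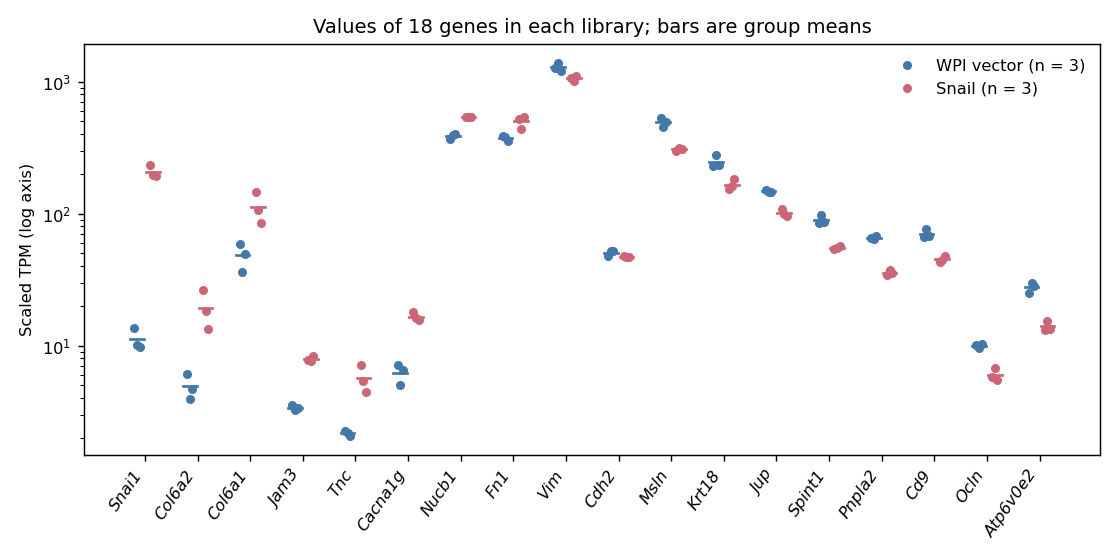
Scaled TPM (log axis) of 18 genes in the 3 WPI vector and 3 Snail libraries, with a bar at each group mean. Snai1, Col6a2, Col6a1, Jam3, Tnc, Cacna1g and Nucb1 are higher in every Snail library, Cdh2 is nearly level, and the genes from Msln to Atp6v0e2 are lower in every Snail library.

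Genes that mark the ovarian surface changed in both directions. Of 22 tested ovarian surface and mesothelial genes 1 rose and 2 fell, a larger share than the 1.72% called over all tested genes, and the median was -0.01. An unadjusted p under 0.05 was reached by 3 of the 22 as higher and 4 as lower, against 6.41% and 8.41% of all tested genes. Mesothelin (Msln), a surface glycoprotein of mesothelial cells, had 529, 457 and 497 scaled TPM with the vector and 299, 314 and 306 with Snail. The groups were wide apart, and the fall of 0.68 on the log2 scale passed in all 6 fits with 1 library left out (adjusted p = 0.00659 with all libraries, limma). Podoplanin (Pdpn), a mucin-like membrane protein, fell from 104 ± 1.59 to 78.1 ± 1.12 (-0.41 ± 0.05, adjusted p = 0.0102, limma). It is listed under 2 identifiers with identical values and was counted once in the list. Upk3b, a uroplakin that marks mesothelium, rose from 308, 274 and 352 to 510, 505 and 411 (0.61 ± 0.11, adjusted p = 0.0456, limma) and passed in 1 of 6 such fits. Wt1 (0.05), Upk1b (-0.05), Bnc1 (0.02), Aldh1a1 (-0.03) and Gata4 (-0.10) had adjusted p of 0.712 to 0.970 (limma).

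The largest called falls were in genes outside the EMT lists. Gm5537, annotated as a processed pseudogene, was listed at 0 in all 3 Snail libraries and at 4.20, 40.7 and 19.8 with the vector. No fold is therefore given, and it passed in 1 of 6 fits with 1 library left out. All other called falls were below 2-fold on the tested scale. Pnpla2, the lipase that starts the breakdown of stored triglyceride, was the most significant fall, with 65.1, 63.7 and 67.4 scaled TPM against 34.3, 37.4 and 35.3 (-0.86 ± 0.06, adjusted p = 0.0042, limma). Atp6v0e2, a subunit of the proton pump that acidifies lysosomes, went from 25.1, 29.6 and 28.5 to 13.2, 15.5 and 13.4 (-0.93 ± 0.09, adjusted p = 0.00659, limma). Neither pair of groups came near to overlapping.

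Of the 15 largest called falls, 8 passed in all 6 fits with 1 library left out, namely Pnpla2, Atp6v0e2 and a further 6. Syt10, a calcium sensor of vesicle fusion, changed by -0.90 ± 0.08. Hid1, which acts in the making of dense-core vesicles, changed by -0.86 ± 0.08, and Syngr1, a synaptic vesicle membrane protein, by -0.80 ± 0.08. Tspan7, a tetraspanin, changed by -0.84 ± 0.06 and Hap1, a partner of huntingtin in transport, by -0.83 ± 0.07. Cystm1, a small membrane protein, changed by -0.77 ± 0.06. These 6 had adjusted p of 0.00541 to 0.00659 (limma). Cx3cl1, a membrane-bound chemokine, fell from 58.0 ± 8.71 to 33.3 ± 1.52 (adjusted p = 0.0204, limma) and passed in 2 of the 6 fits. Among the most abundant called genes were Chchd10, a mitochondrial protein, which fell from 2153 ± 135 to 1403 ± 77.1, and Psap, the precursor of the saposins that help lysosomal enzymes, which fell from 2837 ± 104 to 2309 ± 65.1. Their adjusted p were 0.00896 and 0.0427 (limma).

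Several of the large rises besides Snai1 and Col6a2 were in genes of low to moderate level. Cacna1g, a T-type calcium channel, went from 7.14, 5.04 and 6.54 to 17.8, 16.1 and 15.7 scaled TPM (1.28 ± 0.12, adjusted p = 0.00659, limma). It passed in all 6 fits with 1 library left out, as did Sulf2, an enzyme that edits heparan sulfate (0.71 ± 0.06). Hp, the acute-phase protein haptoglobin, had 5.06, 5.14 and 9.29 against 21.6, 17.9 and 13.4 (1.33 ± 0.24, adjusted p = 0.0419, limma). Egfl7, a secreted protein best known from endothelium, rose from 3.01 ± 0.513 to 7.94 ± 0.916 (1.16 ± 0.13, adjusted p = 0.0102, limma), and the endothelial markers Pecam1 and Cdh5 were not tested because their levels were too low. Of the 3 tested endothelial markers only Egfl7 was called, and the list median was 0.07. Another of the 3, at -0.56, was lower at an unadjusted p under 0.05 (limma). Over all tested genes 0.572% were called higher, and 8.41% were lower at that unadjusted level. The most abundant called rise was Nucb1, a calcium-binding protein of the Golgi, with 371, 394 and 400 against 538, 539 and 537 (0.47 ± 0.05, adjusted p = 0.00719, limma). The transcript AC126553.3 was listed at 0 in all vector libraries and at 3.00, 2.18 and 1.86 with Snail. The acute-phase gene Saa3 had the highest positive value of its list, 1.74 ± 0.47, with 17.0, 4.36 and 7.49 scaled TPM against 52.0, 21.4 and 24.8, and did not pass (adjusted p = 0.132, limma).

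A promoter sequence that was not used to call the genes was more frequent among the falls. RefSeq promoters (GRCm38.p6, from 250 bases before to 50 after a start site) were matched by symbol to 8954 of the tested genes, 103 of the 139 symbols called lower and 48 of the 70 called higher. The hexamer CAGGTG was searched on both strands, where it reads CACCTG. It was present in 61 of 133 promoters of genes called lower (45.9%), in 9 of 62 promoters of genes called higher (14.5%) and in 1929 of 11436 promoters of all tested genes (16.9%). In the whole promoter table, 20.2% of 32851 promoters held it. Counted by gene, it was found for 54 of 103 genes called lower (52.4%), 9 of 48 called higher (18.8%) and 19.5% of all tested genes. Some genes have several listed starts whose promoters overlap, and these are not independent. The share is given as a description, with no test.

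The share moved with the size of the response over all tested genes, called or not. It was 42.3% of 130 promoters where the log2 fold change was below -0.5, 30.4% of 447 between -0.5 and -0.3, 26.0% of 599 between -0.3 and -0.2 and 20.3% of 1331 between -0.2 and -0.1. Between -0.1 and 0 it was 16.9%, and on the positive side it lay between 12.2% and 16.8%. No called gene lay between -0.2 and 0, since the smallest called fall was -0.25 (Gpi1). Median GC content was 62% in promoters of genes called lower, 60.8% for those called higher and 61% for all tested.

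**Figure D3:**
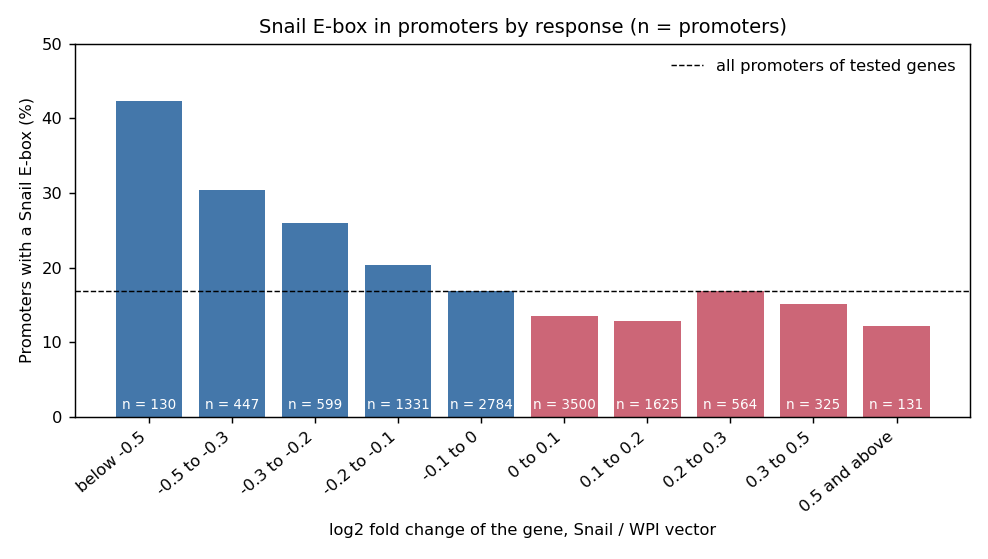
Share of RefSeq promoters (300 bases) that hold CAGGTG or CACCTG, for tested genes grouped by their log2 fold change, Snail over WPI vector, with the number of promoters in each bar and the share over all tested genes (16.9%) as a dashed line. The share falls from 42.3% in the leftmost bar to 16.9% just below 0 and is between 12.2% and 16.8% in the bars to the right.

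The other E-boxes of the form CANNTG were searched in the same way, after this result was seen. CAGCTG was in 21.1% of the promoters of genes called lower and 14.8% of all tested, and CACATG, or CATGTG on the other strand, in 12% and 8.22%. CACGTG, the E-box of MYC and related factors, was in 8.27% and 10.1%. The remaining 6 of the 10 hexamers that this form allows exceeded the share of all tested genes by 1.46 percentage points at most. Of all 2080 distinct hexamers, each counted with its other strand, CACCTG had the largest difference, 29 percentage points. AGGTGG followed with 19.2 points, ACCTGC with 17.3 and AGGTGC with 15.6, and each of them shares 5 letters in a row with CAGGTG or CACCTG. Within the window the matches of genes called lower were most frequent from the start site to 49 bases after it, where 12% of their promoters had one against 2.32% of all tested, and in the 50 bases from -100 to -51, with 11.3% against 3.18%.

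The share was also counted on calls made in other ways. Without each library in turn it was 47.2% to 62.5% of the promoters of genes called lower, on 16 to 40 promoters, and 16.7% to 66.7% of those of genes called higher, on 3 to 25 promoters. Without Snail library 2 the share was not larger for the falls, with 10 of 16 promoters of genes called lower (62.5%) and 2 of 3 of genes called higher (66.7%). With the replicate number as a block it was 50% of 8 promoters and 40% of 5. For genes with a q-value under 0.05 and a negative coefficient in the authors' deposited table it was 33.5% of 355 promoters, and for those with a positive coefficient 14.5% of 179. In a separate comparison of the series, monolayers of the same line with TGFB1 against untreated ones, the promoters of genes called lower held it in 18.2% of 995 cases and those of genes called higher in 16.6% of 1186, against 17.4% of all tested in that table.

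The sites themselves are shown for 4 of the 7 genes called lower that had 2 matches in a promoter, occludin first. The other 3, Wbp2, Sft2d2 and Atp6v0b, are not shown. Then come genes with 1 match, chosen after their values were seen from those described elsewhere in the results. Many described falls had no match and so are not shown. Among them are Jup, Spint1, Msln, Hid1, Tspan7, Syt10, Hap1, Cystm1, Chchd10 and Psap. A gene without a match either lacked the hexamer in its listed promoters or had no promoter matched by symbol. Each line gives 30 bases around a match, 5′ to 3′ on the gene's strand, with the hexamer in capitals and the position of its first base counted from the start site, which is 0. For Pick1 a second match lies within the same stretch, and for 2900026A02Rik a second match begins in the stretch and runs past its end.
Ocln, chr13:100552694-100552723, minus strand, first capital at -213: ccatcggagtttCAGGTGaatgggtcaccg
Ocln, chr13:100552549-100552578, minus strand, first capital at -68: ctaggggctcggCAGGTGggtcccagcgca
Agpat3, chr10:78351808-78351837, minus strand, first capital at -125: gagggagggctgCAGGTGggacgccctgga
Agpat3, chr10:78351654-78351683, minus strand, first capital at 29: tctggaggaaaaCACCTGtccacggtgggc
Pick1, chr15:79229394-79229423, plus strand, first capital at 24: cgcggtcgccgcCAGGTGgaacggcaggtg
2900026A02Rik, chr5:113221234-113221263, minus strand, first capital at 25: cgcgcgccgcggCAGGTGcgggcgggcagg
Atp6v0e2, chr6:48537482-48537511, plus strand, first capital at -75: taagcctagaatCACCTGcaaaatcggagc
Krt18, chr15:102027990-102028019, plus strand, first capital at -214: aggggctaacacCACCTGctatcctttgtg
Wwc1, chr11:35980478-35980507, minus strand, first capital at 33: accgccggagccaCACCTGgcggaggcaga
Pdpn, chr4:143299523-143299552, minus strand, first capital at 24: gatctccgggacCACCTGacgcccacccgc
Timp2, chr11:118355501-118355530, minus strand, first capital at -107: agcgcagcgtgcCAGGTGgtgcgggaagcc
For Pnpla2, the most significant fall, the whole stretch of 250 bases before the start site is shown, with its single match in capitals.
Pnpla2, chr7:141454938-141455187, plus strand, first capital at -123: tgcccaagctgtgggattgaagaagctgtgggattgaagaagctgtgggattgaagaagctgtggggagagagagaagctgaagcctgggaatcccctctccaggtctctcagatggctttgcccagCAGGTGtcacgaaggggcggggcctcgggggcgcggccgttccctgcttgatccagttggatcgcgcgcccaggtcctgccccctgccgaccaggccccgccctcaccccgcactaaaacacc
In these examples the E-box stood in either orientation, and the bases beside it differed between genes. A match shows that the letters are there, and binding of Snail was not measured.

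Few genes on the metabolic and interferon lists passed. Over all tested genes 1.14% were called lower and 46.6% had negative values. Of 23 tested genes on the cholesterol list, 2 fell and none rose, and 22 had negative values, with a median of -0.22 against 0.01 for all tested genes. Msmo1 and Dhcr7, which act late in cholesterol synthesis, changed by -0.43 ± 0.06 and -0.40 ± 0.06 (adjusted p = 0.027 and 0.0267, limma). A further 14, among them Sqle (-0.34), were lower at an unadjusted p under 0.05 only, a level that 8.41% of all tested genes reached. Among 23 interferon response genes 2 fell, Bst2 (tetherin, -0.56 ± 0.07, adjusted p = 0.0128, limma) and Ddx58 (the RNA sensor RIG-I, -0.36 ± 0.06, adjusted p = 0.0416, limma). Their median was -0.21 and 22 of 23 were negative, with 8 lower and 1 higher at an unadjusted p under 0.05. Tap1, a peptide transporter, was the exception at 0.42 (adjusted p = 0.12, limma).

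Of 25 tested p53 target genes 1 rose and none fell. Phlda3, a p53-induced inhibitor of AKT, rose from 118, 124 and 120 to 164, 178 and 178 scaled TPM (0.52 ± 0.05, adjusted p = 0.00719, limma). The list median was 0.18, and 11 genes were higher and 3 lower at an unadjusted p under 0.05, against 6.41% and 8.41% of all tested genes, with Cdkn1a, the cell cycle inhibitor p21, at 0.58 and Ccng1 at 0.36, neither of which passed after adjustment (limma). Of 33 DNA replication genes 30 had positive values with a median of 0.13, and none of 27 mitosis genes or of the 33 was called (limma). An unadjusted p under 0.05 was reached by 3 of the 33 and by none of the 27.

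Several pathways that are often tied to EMT had no called members, and 1.72% of all tested genes were called. A list this short without a call is therefore near that share. None of 27 TGF-beta and SMAD targets, 25 actin and SRF targets, 20 stemness genes, 24 WNT genes, 8 NOTCH genes or 36 ERK feedback and growth factor genes passed (limma), and an unadjusted p under 0.05 in either direction was reached by 4, 5, 4, 5, 1 and 8 of them. Over all tested genes, 6.41% were higher and 8.41% lower at that level. The list medians lay between -0.07 and 0.07. Cnn1, the smooth muscle protein calponin on the actin list, came nearest, with 1.88, 2.73 and 3.26 scaled TPM against 4.91, 8.08 and 6.78 (1.06 ± 0.20, adjusted p = 0.0505, limma). Its groups did not overlap, and the authors' deposited table lists it with a q-value of 0.00219. Among 22 YAP and TEAD genes 2 fell, Wwc1 (KIBRA, an upstream activator of Hippo signaling, -0.65 ± 0.06, adjusted p = 0.00659, limma) and the receptor kinase Axl (-0.28 ± 0.05, adjusted p = 0.0495, limma). These 2 do not act alike, since Wwc1 restrains YAP and Axl is counted among its targets. Ptgs2, the inducible cyclooxygenase, had 164 ± 11.8 and 207 ± 29.9 (0.33 ± 0.11, adjusted p = 0.209, limma). The stem cell antigen Ly6a was below 1 in every library, at 0.190 to 0.882.

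Among 24 NF-kB and inflammatory genes 1 rose and 1 fell. Ccl7, a monocyte chemokine, went from 9.64 ± 1.90 to 16.2 ± 0.826 scaled TPM (0.71 ± 0.13, adjusted p = 0.0438, limma), while Cx3cl1 was the fall. Of 27 NRF2 targets 1 fell, Gsr, which regenerates glutathione (-0.35 ± 0.06, adjusted p = 0.0384, limma). No member was called (limma) of 20 immediate early genes, 15 G1 cyclins and CDK inhibitors, 28 homologous recombination and checkpoint genes, 18 hypoxia genes, 11 prostaglandin genes, 19 genes of the integrated stress response, 19 ER chaperones or 13 mitochondrially encoded genes, and at an unadjusted p under 0.05 there were 1, 3, 0, 4, 2, 1, 0 and 0. The same held for the tested markers of granulosa and theca cells (8), ovarian stroma and fibroblasts (9), oviductal epithelium (4) and oocytes (1), where 0, 3, 0 and 0 had an unadjusted p under 0.05. Over all tested genes 1.72% were called, and 6.41% were higher and 8.41% lower at that unadjusted level. Brca1 had 10.3 ± 1.30 and 11 ± 0.894 (0.10 ± 0.11, adjusted p = 0.776, limma), and Tgfb1 had 41.7 ± 1.60 and 39.5 ± 0.908 (-0.07 ± 0.06, adjusted p = 0.646, limma).

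**Figure D4:**
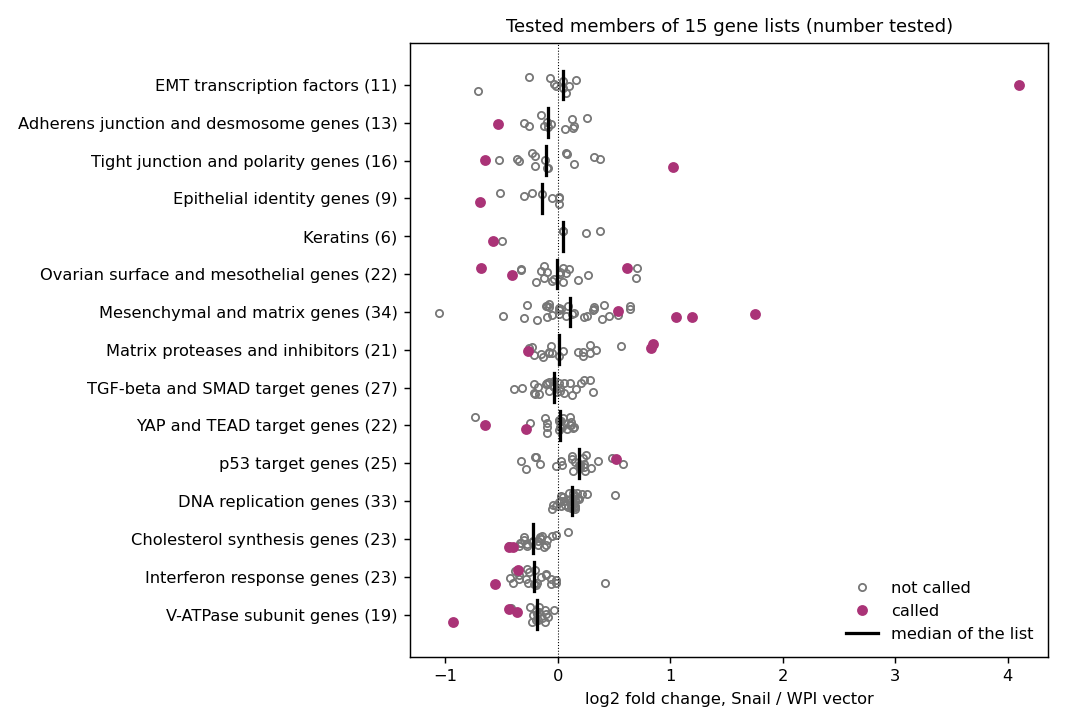
Log2 fold change, Snail over WPI vector, of each tested member of 15 gene lists (the number tested is in brackets), with called genes filled and the list median as a bar. Called genes are few in every list. The medians of the cholesterol (-0.22), interferon (-0.21) and V-ATPase (-0.19) lists lie left of 0 and that of the p53 list (0.18) right of it, and the V-ATPase list was chosen after values were seen.

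The same genes can be set beside the response to TGFB1, a cytokine that induces EMT and Snai1. That comparison used 3 monolayer samples of m1102 with TGFB1 at 10 ng/mL and 3 untreated ones, from a table that the authors normalized separately. It shares no sample with the Snail comparison. The limma fit behind it also held the 3 untreated and 3 TGFB1 spheroid samples of that table. Those spheroid samples entered the variance estimate and the choice of genes tested, but not the 2 means compared. The labels of 2 of the 3 untreated monolayer samples cite the same earlier sample. Snai1 itself went from 1.16 ± 0.225 to 6.25 ± 3.26 scaled TPM there (1.66 ± 0.31, adjusted p = 0.00542, limma). The vector libraries, at 9.81 to 13.7 in their own table, thus stood above the untreated monolayers and about level with the highest TGFB1 library (10.0), although levels in separately normalized tables were not tested against each other.

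Of the 210 genes called with Snail, all tested in both tables, 77 were also called with TGFB1 (36.7%), while 17.9% of the 12152 genes tested in both were called with TGFB1. The 77 made up 3.54% of the 2174 TGFB1 calls. They had the same direction in 53 cases and the opposite direction in 24. Of 35 genes that rose with Snail and were called with TGFB1, 26 also rose with it and 9 fell. Of 42 that fell with Snail, 27 fell and 15 rose with TGFB1. Shared rises included Jam3 (1.02 with Snail, 1.01 with TGFB1), Cacna1g (1.28 and 1.21), Sulf2 (0.71 and 1.71), Lsp1 (0.93 and 1.94) and Rcn3 (0.76 and 1.88). Shared falls included Ocln (-0.65 and -1.20), Hid1 (-0.86 and -1.01), Chchd10 (-0.62 and -0.87) and Psap (-0.30 and -1.52).

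Collagen VI went in opposite directions. Col6a1 was 1.19 with Snail and -2.64 ± 0.50 with TGFB1 (adjusted p = 0.00534, limma), and Col6a2 was 1.75 and -1.25 ± 0.19 (adjusted p = 0.00199, limma). Hp (1.33 and -2.17), Lgals2 (a galectin, 0.97 and -2.10) and Upk3b (0.61 and -1.51) did likewise. The TGFB1 libraries were uneven, with Col6a1 at 0.479 scaled TPM in library 1 and at 4.56 and 4.17 in libraries 2 and 3. The untreated libraries had 16.8 to 25.6. Msln, Pnpla2, Spint1, Krt18 and Atp6v0e2, which fell with Snail, were not called with TGFB1, where their changes were -0.31, -0.25, 0.33, -0.83 and 0.29 with adjusted p of 0.0674 to 0.423 (limma). Whether a gene's response differs between the treatments was not tested, since the tables were normalized separately.

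**Figure D5:**
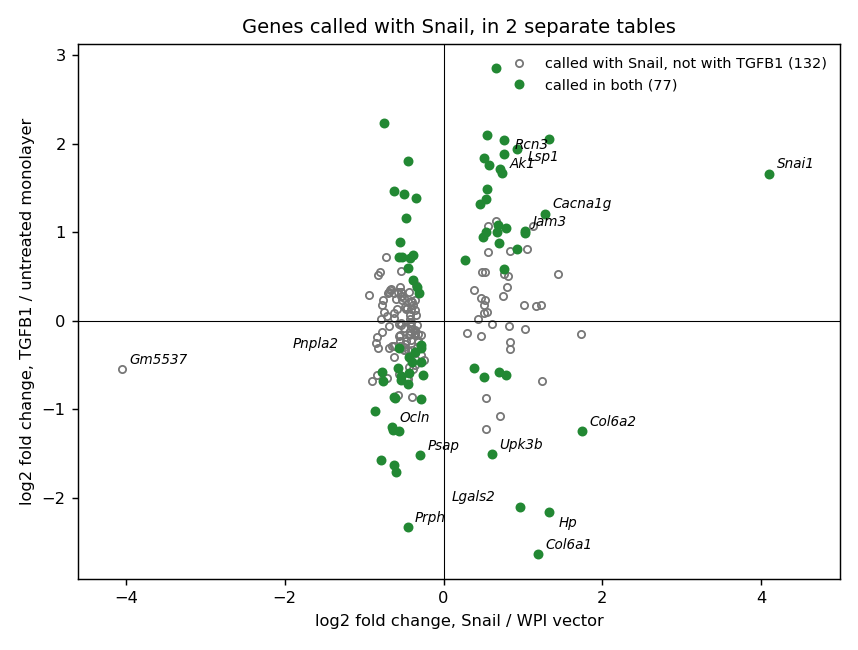
Genes called with Snail, with the log2 fold change of Snail over WPI vector on the x axis and of TGFB1 over untreated monolayers on the y axis, filled where also called with TGFB1 (77 genes). A symbol with several identifiers is drawn once. Col6a1, Col6a2, Hp, Lgals2 and Upk3b lie at the lower right, higher with Snail and lower with TGFB1, while Snai1, Cacna1g and Jam3 are higher in both.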

How the data were processed

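RNA of 6 monolayer samples (3 Snail, 3 WPI vector) was compared. The submitters' processing notes name kallisto 0.44.0, sleuth 0.30.0 and GRCm38. The authors deposited a table of signal values per gene, named as TPM but with sums other than 1000000, and treated here as TPM scaled per library. The authors' result table holds deposited p-values and q-values and a deposited coefficient on the natural log scale, divided here by the natural log of 2. The test planned for TPM was kept. Genes at 1 or more in at least 3 libraries were tested on log2(value + 1) with limma 3.58.1 (R 4.3.3, variance trend, two-sided, Benjamini-Hochberg). Beside a log2 fold change, ± gives the standard error, and beside a scaled TPM the SD (n = 3 libraries a group). On simulated data with 12240 genes the test recovered 98% of changes of 0.5 log2 and 100% of changes of 1 log2, with 2.94% false calls. The changed genes were drawn only from those of moderate or high level. The simulated noise was independent between libraries, and its spread was set by level alone. These shares therefore do not carry over to low genes, to genes of wider spread or to libraries that vary together. Identifiers were matched to GENCODE M21 (98.1% found). In lists, a symbol with several identifiers was counted once. Of the called rows, 2 repeat another called row.

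The members and lists were chosen with earlier results of these data known. Named genes were Snai1, the 15 largest called rises and falls with groups apart and a mean of at least 5, up to 5 called members per direction of each of 39 lists, a panel of EMT and junction genes, and the 10 most abundant called genes per direction. Not all of them are described. Genes outside this rule, and the V-ATPase, lysosome and collagen families, were chosen after their values were seen. Alternatives covered pseudocounts (0.1, 5), filters, scalings, variance models, a replicate block, each library left out and the authors' q-value.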

Additional observations from a re-analysis of the deposited data

How the results depend on the processing

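Snai1 kept its direction and its call under every alternative run, with log2 fold changes of 3.71 to 4.24 in the refits and 4.22 in the authors' deposited table. The median of all tested genes stayed within 0.00 to 0.02. No named gene that passed changed direction. Of 62 such genes besides Snai1, 14 passed in every fit with 1 library left out and 20 in every other setting apart from the replicate block. The count of 210 calls (70 higher, 140 lower, 18 of at least 2-fold) moved with the settings. Without 1 library it was 23 to 75, with 5 to 26 higher, 18 to 49 lower and 6 to 15 of at least 2-fold, in fits with fewer samples. With no filter on low values, where 23084 genes were tested, it was 54 (13 higher, 41 lower, 5 of at least 2-fold). Genes of at least 2-fold numbered 3 with a pseudocount of 5 and 10 with a filter of 5. There were 90 lower without a variance trend and 106 higher with library quality weights, and the cause was not tested. The authors' q-value, from another model, gave 555 (201 higher, 354 lower, 54 of at least 2-fold). Keeping identical rows once, an alternative chosen after seeing the data, gave 208. With the replicate number as a block, 16 genes were called (6 higher, 10 lower, 4 of at least 2-fold). Same-numbered libraries had correlated deviations of 0.33, -0.01 and -0.08, and only library 1 correlated best with its own number. Vector library 2 correlated best with Snail library 3 (0.25), and vector library 3 with Snail library 2 (0.20). With 3 libraries a group these values cannot settle whether equal numbers mark paired samples. Depth is unknown, so counting error could not be separated from other spread.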

Other observations

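Genes of the lysosome appeared repeatedly among the falls, and 2 families were therefore counted after their values were seen, as a description with no test. All 19 tested subunits and accessory proteins of the V-ATPase, the proton pump that acidifies lysosomes and other vesicles, had negative log2 fold changes, with a median of -0.19. Of these, 3 passed (Atp6v0e2 at -0.93, Atp6v0a1 at -0.44 and Atp6v0b at -0.36, adjusted p = 0.0125 to 0.0419 for the last 2, limma), and 11 had an unadjusted p under 0.05, against 8.41% of all tested genes that were lower at that level. The summed scaled TPM of the family was 3562 to 3636 with the vector and 3100 to 3235 with Snail, so the sums did not overlap. Among 54 tested lysosomal hydrolase and membrane genes 7 fell and none rose, and 45 were negative, with a median of -0.09. At an unadjusted p under 0.05, 15 of the 54 were lower. Over all tested genes 1.14% were called lower and 46.6% were negative. The 7 were Tpcn1 (-0.50), a lysosomal ion channel, Sort1 (-0.50), a sorting receptor, Neu1 (-0.42), a sialidase, Asah1 (-0.34), the acid ceramidase, Tpp1 (-0.33), a peptidase, Ostm1 (-0.31), a partner of the chloride transporter Clcn7, and Psap (-0.30).

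Of 18 tested glycolysis genes 15 were negative, with 1 called, Gpi1 (glucose-6-phosphate isomerase, -0.25 ± 0.04, adjusted p = 0.0387, limma), and a median of -0.09. At an unadjusted p under 0.05 (limma), 6 of the 18 were lower. Over all tested genes 46.6% were negative and 1.72% were called, with 1.14% called lower. Of 13 complement genes none passed (limma), and the median was 0.17, with C3 at 0.69 and an adjusted p of 0.319. An unadjusted p under 0.05 was reached by 4 of the 13 as higher and 1 as lower, against 6.41% and 8.41% of all tested genes.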
